A study of Mus musculus with 48 samples.

Results

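The vessel lining of the brain was followed here through 10 genes: *Pecam1*, *Cldn5*, *Cdh5* and *Esam*, whose proteins sit at the junctions between endothelial cells; *Ly6c1*, a surface antigen; and the transporters *Slco1a4*, *Abcb1a*, *Slc7a5*, *Mfsd2a* and *Slco1c1*. The rule names them by symbol and uses no measured value, though the members were chosen with earlier results of these data known. All 10 were found among the 19601 protein-coding genes of the batch-corrected tables and among the 55385 genes of the tables before correction. All 10 passed the filter on low counts, which kept 14839 genes. Every one of them was counted in each of the 42 mice, from 69 counts for *Cdh5* to 1857 for *Slco1a4* before correction.

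The substantia nigra (SN) of male C57Bl/6J mice was profiled by bulk RNA-seq after a unilateral injection into the striatum. PFF are preformed fibrils of alpha-synuclein, and the control mice received the same protein as monomer, so that every mouse carried an injection. Mice of each kind breathed either 21% or 11% O2. The 42 mice were 11 monomer and 12 PFF mice at 21% O2, and 9 monomer and 10 PFF mice at 11% O2. By the dates in the labels, mice were injected at 121 days of age and the SN was taken 90 to 98 days later, which the labels give as 12 weeks. The paper puts the low oxygen over the whole of those 12 weeks, whereas the description filed with the data gives 21% O2 first and 11% O2 for the later part. The replicates were separate mice. The dissected piece was the whole SN with all of its cells. A change in the number of endothelial cells and a change in RNA per endothelial cell therefore cannot be told apart.

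Brain endothelial cells differ from those of other organs in that their tight junctions close the space between cells, so that solutes cross the cell itself. Carriers on its blood and brain faces bring in amino acids, thyroid hormone and lipids, and efflux pumps return drugs to the blood. Together with pericytes and astrocyte endfeet this layer forms the blood-brain barrier, and low oxygen is a well known stimulus to the growth of brain capillaries.

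The stretches of DNA ahead of 3 members are shown because these genes mark the ends of the responses described below: in monomer mice *Cldn5* rose most at 11% O2 and *Mfsd2a* had the smallest change, and *Slco1a4* was the member called for PFF at 21% O2. Each runs 5′ to 3′ over the 250 bases before a transcription start of RefSeq on GRCm38.p6. Capitals mark the words searched on both strands, which were ACGTG and GCGTG, the core to which hypoxia-inducible factors bind, and AGGAAG and CGGAAG, which hold the core of ETS factors of endothelial cells.
*Cldn5* (chr16:18776597-18776846, plus strand): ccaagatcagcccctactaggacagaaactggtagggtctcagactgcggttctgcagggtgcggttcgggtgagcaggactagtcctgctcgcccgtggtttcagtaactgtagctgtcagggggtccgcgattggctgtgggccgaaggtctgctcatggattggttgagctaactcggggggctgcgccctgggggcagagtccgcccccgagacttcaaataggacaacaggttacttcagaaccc
*Slco1a4* (chr6:141856221-141856470, minus strand): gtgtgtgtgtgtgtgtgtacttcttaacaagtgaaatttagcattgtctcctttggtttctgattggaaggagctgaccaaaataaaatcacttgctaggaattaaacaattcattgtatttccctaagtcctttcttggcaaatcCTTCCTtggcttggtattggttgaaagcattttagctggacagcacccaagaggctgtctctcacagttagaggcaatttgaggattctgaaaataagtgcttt
*Mfsd2a* (chr4:122961189-122961438, minus strand): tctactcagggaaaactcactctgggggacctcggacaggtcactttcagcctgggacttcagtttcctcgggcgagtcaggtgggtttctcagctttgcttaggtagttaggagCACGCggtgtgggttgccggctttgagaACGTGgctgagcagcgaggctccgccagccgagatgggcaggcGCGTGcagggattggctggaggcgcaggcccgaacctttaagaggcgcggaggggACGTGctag
None of the 4 words was in the *Cldn5* stretch. The *Slco1a4* stretch held AGGAAG once, and the *Mfsd2a* stretch held ACGTG and GCGTG 2 times each. Over all 32851 promoters of the same length, 38.6% held ACGTG or GCGTG and 39.2% held AGGAAG or CGGAAG. Promoters were matched for 6 of the 10 members, and *Pecam1*, *Cdh5*, *Esam* and *Slc7a5* had no entry. *Ly6c1* had more than 1 start, so the matched members had 7 stretches. Of these 7, 1 held ACGTG or GCGTG and 4 held AGGAAG or CGGAAG. Such matches describe letters and not binding.

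Before correction, each of the 42 mice had between 12902996 and 17120921 counts on genes. Samples came in 3 batches by date. Monomer mice at 21% and at 11% O2 met only in batch 1, with 4 mice each, because batch 2 held no monomer mice at 11% O2 and batch 3 none at 21% O2. Of the 6 mice that the authors left out, 3 were monomer mice at 11% O2 in batch 3, and before correction their *Cldn5* was 188.7, 207.9 and 316 TPM, against 131 to 240 TPM in the 5 batch 3 monomer mice that were kept. In batch 2, a left-out PFF mouse at 11% O2 had 275 TPM, against 95.3 to 128 TPM in those kept. A left-out monomer mouse at 21% O2 there had 121 TPM, against 67.4 to 103 TPM. A left-out PFF mouse at 11% O2 in batch 1 had 40.9 TPM, against 71.4 to 86.7 TPM, with 3134594 counts on genes. Levels are TPM (counts scaled to gene length and to the library total) of the batch-corrected tables unless stated. Tests are edgeR's quasi-likelihood test on the corrected counts with Benjamini-Hochberg adjustment over all 14839 genes, and calls required an adjusted p under 0.05 together with an absolute log2 difference above 0.25.

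The 23 endothelial identity genes outside the 10 were present in every mouse and none was at 0. Among induced or tip cell genes, *Sele* was at 0 in 7, *Selp* in 6 and *Esm1* in 2 of the 11 monomer mice at 21% O2. The median of *Egfl7* was 19.2 TPM, of *Flt1* 15.4 TPM, of *Tek* 13.7 TPM, of *Tie1* 10.1 TPM and of *Erg* 5.69 TPM in monomer mice at 21% O2. Among the members in those mice, *Cldn5* (median 79.0 TPM) and *Ly6c1* (76.8 TPM) had the highest levels, and *Pecam1* (12.2 TPM) and *Cdh5* (9.23 TPM) the lowest. The ranges of *Cldn5* (58.4 to 105 TPM) and *Ly6c1* (65.3 to 105 TPM) overlapped, as did those of *Pecam1* and *Cdh5*. The medians of *Slc7a5* (55.0 TPM), *Mfsd2a* (32.0 TPM), *Slco1c1* (29.2 TPM), *Slco1a4* (28.9 TPM), *Abcb1a* (25.7 TPM) and *Esam* (18.1 TPM) lay between them. *Ly6c2*, a near-identical neighbour of *Ly6c1*, reached at most 10 counts in a mouse, whereas *Abcb1b* had a median of 103.5 counts beside 551.5 for *Abcb1a*, so the split of reads within that pair is uncertain.

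**Figure D1:**
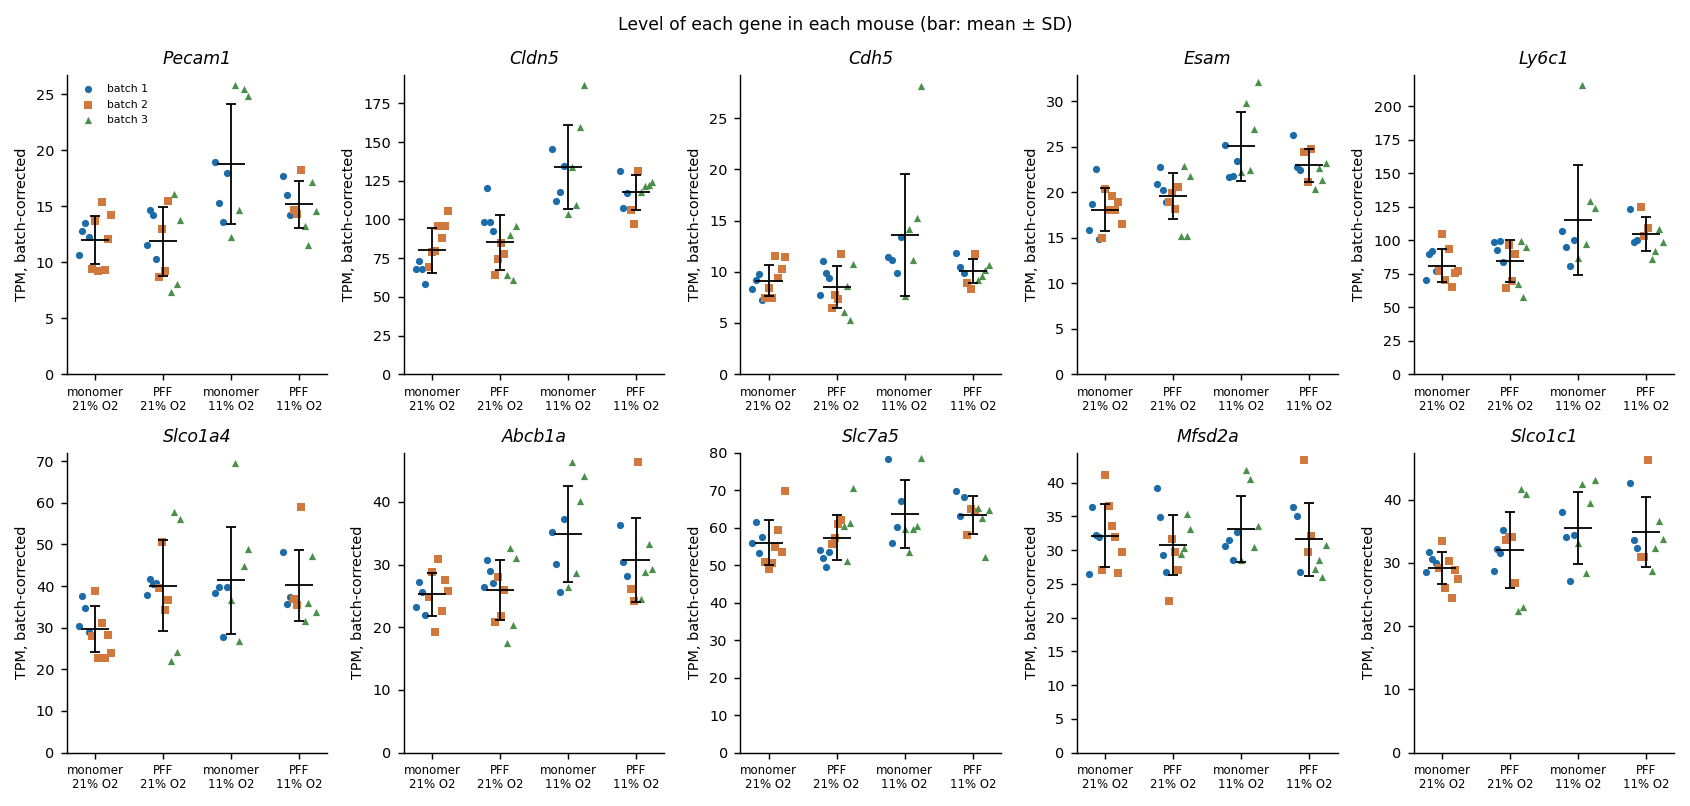
Batch-corrected TPM of the 10 genes in each of the 42 mice, by group. Points are mice, with shape and colour for the batch, and bars are the mean ± SD. *Cldn5* at 11% O2 lies mostly above the 21% O2 groups, *Mfsd2a* shows 4 overlapping groups, and single batch 3 mice stand high for *Cdh5* and *Ly6c1* in monomer mice at 11% O2.

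The first question was whether low oxygen changed these genes in control mice. In monomer mice, 8 of the 10 members were called higher at 11% than at 21% O2 and none lower, against 4.68% of all genes tested called higher and 7.23% called in either direction. All 4 junction genes and *Ly6c1* were called, and 3 of the 5 transporters. The median log2 fold change was 0.61 over the junction genes and 0.29 over the transporters, beside -0.01 over all genes. These counts depended on the mice and the batch term, as given for each group of genes.

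*Cldn5* (ENSMUSG00000041378.2, chromosome 16 from 18776847 to 18778262 of GRCm38, plus strand) encodes claudin-5, the main claudin of the brain endothelial tight junction. Its level ran from 58.4 to 105 TPM, with a median of 79.0 TPM, in monomer mice at 21% O2, and from 103 to 187.2 TPM, with a median of 134 TPM, at 11% O2. Of the 9 mice at 11% O2, 8 were above the highest mouse at 21% O2, and the groups overlapped by 1 mouse of each. The change was 0.74 on the log2 scale (edgeR, adjusted p = 6.65e-06, SE 0.107). Within batch 1, before correction, the 4 mice at 21% O2 had 38.1 to 48.2 TPM and the 4 at 11% O2 had 74.8 to 97.0 TPM, with no overlap. That batch alone gave 0.94 (adjusted p = 0.000327, SE 0.104), and *Cldn5* was the only member called there, against 2.01% of all genes. In batch 1 the mean before correction was 44.2 TPM in monomer and 67.3 TPM in PFF mice at 21% O2. At 11% O2 it was 85.0 TPM in monomer and 78.4 TPM in PFF mice. The 0.94 was thus taken against 4 monomer mice that all lay below the PFF mice of the same batch and oxygen level.

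*Pecam1* (ENSMUSG00000020717.19, chromosome 11 from 106654217 to 106750628), an adhesion molecule of the lateral border, had 9.19 to 15.3 TPM (median 12.2) at 21% O2 and 12.3 to 25.8 TPM (median 17.96) at 11% O2. All 9 mice at 11% O2 were above the median of the other group and 5 were above its highest mouse. It rose by 0.65 in log2 units (SE 0.137, adjusted p = 0.00115), and batch 1 alone gave 0.37 (adjusted p = 0.199).

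*Esam* (ENSMUSG00000001946.14, chromosome 9 from 37528078 to 37538319), an immunoglobulin-like adhesion molecule of endothelial junctions, had 14.8 to 22.5 TPM (median 18.1) at 21% O2 and 21.7 to 32.1 TPM (median 23.4) at 11% O2. Of the 11 mice at 21% O2, 10 were below the lowest mouse at 11% O2. Its log2 change of 0.48 (SE 0.0794, adjusted p = 5.66e-05) was 0.38 in batch 1 alone (adjusted p = 0.0873).

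*Cdh5* (ENSMUSG00000031871.9, chromosome 8 from 104101625 to 104144511) encodes VE-cadherin of the adherens junction. It had 7.28 to 11.5 TPM (median 9.23) at 21% O2 and 7.60 to 28.1 TPM (median 11.4) at 11% O2. At 11% O2, 4 of 9 mice were above the highest mouse at 21% O2, and the top value came from 1 mouse, with 15.3 TPM in the next. Correction left the count of the top mouse at 487 and lowered that of the next from 372 to 264. Before correction they had 26.0 and 19.9 TPM. The fitted change was 0.57 (SE 0.149, adjusted p = 0.00758), and 0.42 in batch 1 alone (adjusted p = 0.119).

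*Ly6c1* (ENSMUSG00000079018.10, chromosome 15 from 75044018 to 75048830), an antigen of brain capillaries, had 65.3 to 105 TPM (median 76.8) at 21% O2 and 80.6 to 216 TPM (median 100.1) at 11% O2. Again 1 mouse at 11% O2 stood far above the rest, the next having 130 TPM. The fitted change was 0.51 (SE 0.125, adjusted p = 0.00439) and in batch 1 alone 0.20 (adjusted p = 0.377).

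The transporters were less uniform. *Abcb1a* (ENSMUSG00000040584.8, chromosome 5 from 8660077 to 8748575) encodes the efflux pump P-glycoprotein and had 19.2 to 30.9 TPM (median 25.7) at 21% O2 and 25.7 to 46.4 TPM (median 35.2) at 11% O2. At 11% O2, 5 of 9 mice were above the highest mouse at 21% O2. It rose by 0.47 (SE 0.117, adjusted p = 0.00496), with 0.38 in batch 1 alone (adjusted p = 0.155).

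*Slco1a4* (ENSMUSG00000030237.14, chromosome 6 from 141805440 to 141856199), a carrier of organic anions, had 22.6 to 38.7 TPM (median 28.9) at 21% O2 and 26.7 to 69.6 TPM (median 39.7) at 11% O2. Over the 42 mice it rose by 0.48 (SE 0.151, adjusted p = 0.0278). Within batch 1 the groups did not separate, with 25.7 to 36.8 TPM against 21.5 to 36.0 TPM before correction and a fitted change of 0.04 (SE 0.166, adjusted p = 0.919). The 5 monomer mice at 11% O2 of batch 3, where no monomer mice breathed 21% O2, had 30.0 to 64.3 TPM before correction. Correction left the top mouse of these at 1857 counts (69.6 TPM) and lowered the next from 1395 to 1291 counts.

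*Slco1c1* (ENSMUSG00000030235.17, chromosome 6 from 141524368 to 141570177), a thyroid hormone carrier that astrocytes express too, had 24.5 to 33.5 TPM (median 29.2) at 21% O2 and 27.2 to 43.2 TPM (median 34.3) at 11% O2. Of the 9 mice at 11% O2, 6 exceeded every mouse at 21% O2. The fitted change was 0.29 (SE 0.0970, adjusted p = 0.0373), and batch 1 alone gave 0.14 (adjusted p = 0.551).

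*Slc7a5* (ENSMUSG00000040010.10, chromosome 8 from 121881150 to 121907694) carries large neutral amino acids, L-DOPA among them. It had 49.0 to 69.8 TPM (median 55.0) at 21% O2 and 53.5 to 78.6 TPM (median 60.2) at 11% O2, and was not called (log2 fold change 0.19, SE 0.0687, adjusted p = 0.0593). *Mfsd2a* (ENSMUSG00000028655.11, chromosome 4 from 122946850 to 122961188), which carries docosahexaenoic acid as a lysophospholipid and restrains vesicle transport, had 26.5 to 41.1 TPM (median 32.0) at 21% O2 and 28.5 to 41.9 TPM (median 31.5) at 11% O2. Its groups lay over each other, and the fitted change was 0.05 (SE 0.0955, adjusted p = 0.789).

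The monomer mice at 11% O2 numbered 6 and 11, both of batch 3, held the top values of *Ly6c1* and *Cdh5*. With both left out, a choice made after seeing the data that lowers the difference by construction, 3 members were called (*Cldn5* 0.66, *Pecam1* 0.49 and *Esam* 0.38 on the log2 scale) against 6.23% of all genes, and none of the transporters. When batch entered the fit as a covariate, on uncorrected counts, 5 of the 10 were called in 42 mice, namely *Cldn5*, *Pecam1*, *Esam*, *Abcb1a* and *Ly6c1*, against 4.44% of all genes. In 48 mice the same fit called 3, which were *Cldn5*, *Pecam1* and *Esam*, against 5.07% of all genes. That fit included the 6 mice that the authors left out, among them the mouse with 3134594 counts.

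**Figure D2:**
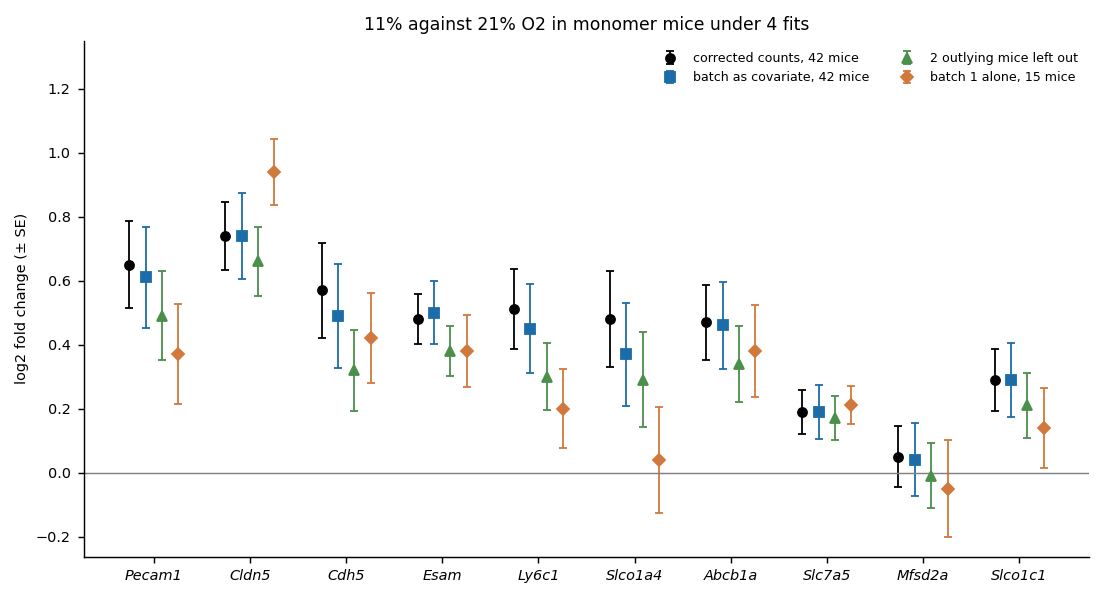
Log2 fold change (± SE) of the 10 genes at 11% against 21% O2 in monomer mice under 4 fits, shown by shape and colour. *Cldn5* ranges from 0.66 to 0.94, *Slco1a4* falls from 0.48 to 0.04 in batch 1 alone, and *Mfsd2a* stays near 0.

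In PFF mice the same change of oxygen gave 1 called member of 10, *Cldn5*, against 0.438% of all genes called higher and 0.580% in either direction. Its level was 61.0 to 120 TPM (median 87.4) at 21% O2 and 97.1 to 132 TPM (median 120) at 11% O2. All 10 mice at 11% O2 were above the median of the 21% O2 group and 5 above its highest mouse. *Cldn5* rose by 0.47 (SE 0.103, adjusted p = 0.0114). Each batch held both groups, and gave 0.21, 0.59 and 0.64 in batches 1, 2 and 3, none of them called in groups of 3 or 4 mice, where 0.0406%, 0.0472% and 0.0136% of all genes were called. No other member was called in a single batch for this comparison.

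The other junction genes of PFF mice had log2 fold changes of 0.36 (*Pecam1*, SE 0.133, adjusted p = 0.273), 0.25 (*Cdh5*, SE 0.146, adjusted p = 0.564) and 0.23 (*Esam*, SE 0.0759, adjusted p = 0.189). *Pecam1* had 7.34 to 16.1 TPM at 21% O2 and 11.6 to 18.2 TPM at 11% O2, and *Esam* had 15.2 to 22.9 TPM and 20.3 to 26.3 TPM. For *Esam* and *Cdh5*, all 10 mice at 11% O2 exceeded the median of the 21% O2 group.

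*Ly6c1* had a value of 0.31 (SE 0.119, adjusted p = 0.302). Among the transporters, the log2 fold changes were 0.25 for *Abcb1a*, 0.14 for *Slc7a5*, 0.12 for *Slco1c1*, 0.04 for *Mfsd2a* and 0.00 for *Slco1a4*, with adjusted p from 0.422 to 0.996. *Slco1a4* had 21.9 to 57.8 TPM (median 40.0) at 21% O2 and 31.7 to 59.1 TPM (median 36.4) at 11% O2, so neither group stood above the other. Over the junction genes the median was 0.30 and over the transporters 0.12, beside -0.01 over all genes.

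**Figure D3:**
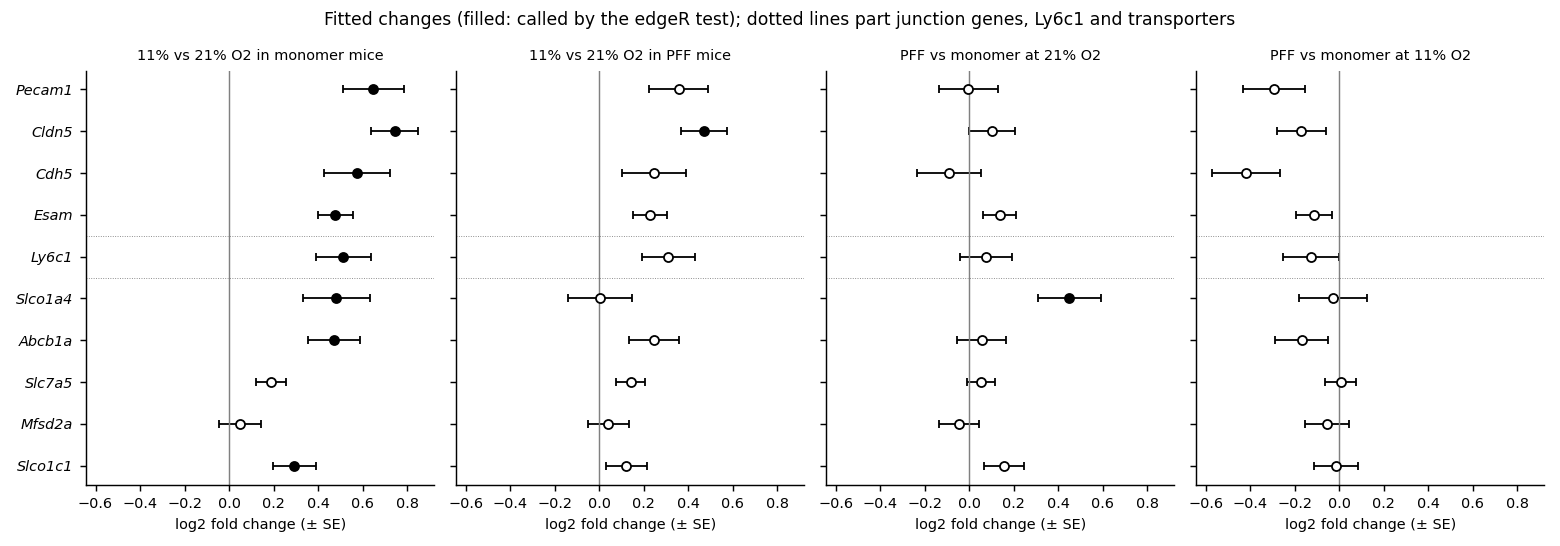
Log2 fold change (± SE) of the 10 genes in 4 comparisons, junction genes at the top, *Ly6c1* in the middle and transporters below. Filled points are called: 8 at 11% O2 in monomer mice, *Cldn5* in PFF mice, *Slco1a4* for PFF at 21% O2 and none for PFF at 11% O2.

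Next, PFF and monomer mice were compared at each oxygen level. At 21% O2, 1 member was called, *Slco1a4*, against 2.29% of all genes called higher and 3.70% in either direction. It had 22.6 to 38.7 TPM (median 28.9) in monomer and 21.9 to 57.8 TPM (median 40.0) in PFF mice. Of the 12 PFF mice, 7 exceeded every monomer mouse and 2, both of batch 3, were below the monomer median. *Slco1a4* rose by 0.45 (SE 0.142, adjusted p = 0.0416), with 0.26 in batch 1 (adjusted p = 0.481) and 0.52 in batch 2, where it was called against 3.91% of all genes. It was called in 30 of the 42 fits that left out 1 mouse, and not with batch as a covariate (0.40, adjusted p = 0.0610), a fit that called 3.23% of all genes.

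*Slco1c1*, a neighbour of *Slco1a4* on chromosome 6, had 22.4 to 41.6 TPM in PFF mice at 21% O2 (log2 fold change 0.15, SE 0.0907, adjusted p = 0.313). The other 8 members had log2 fold changes from -0.09 (*Cdh5*) to 0.14 (*Esam*), with the smallest adjusted p at 0.282. *Cldn5* went in opposite directions in the batches. In batch 1 it was called higher (0.63, adjusted p = 0.0438), where 0.0609% of all genes were called, and in batch 2 it was at -0.21 (adjusted p = 0.333). Its pooled value was 0.10 (adjusted p = 0.591).

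At 11% O2, 0 of 10 members and 0 of 14839 genes were called between PFF and monomer mice, 0% of those tested, with 581 genes at an unadjusted p under 0.05 and 1 gene called by DESeq2. At an unadjusted p under 0.05, 2 members passed in edgeR, 2 in DESeq2 and 1 in limma, and neither of those tools called a member. They were *Cdh5* (log2 fold change -0.42, SE 0.152) and *Pecam1* (-0.29, SE 0.139), each lower in PFF mice with an adjusted p of 1. *Cdh5* had 8.31 to 11.8 TPM (median 9.996) in PFF and 7.60 to 28.1 TPM (median 11.4) in monomer mice, so that the PFF values lay inside the monomer range. With replicates 6 and 11 of the monomer mice left out, *Cdh5* was at -0.17 and *Pecam1* at -0.14.

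Whether oxygen acted differently in PFF mice was tested by the interaction of injection and oxygen, for which 2.14% of all genes were called. It called 0 of 10 members with edgeR, and 2 had an unadjusted p under 0.05, which were *Slco1a4* (-0.48, SE 0.209, adjusted p = 0.245) and *Esam* (-0.25, SE 0.110, adjusted p = 0.251). DESeq2 and limma also called 0, with 2 and 1 at that unadjusted p. All 10 values were negative, from -0.48 to -0.01, where 49.7% of all genes had positive values. The 10 were measured in the same mice and varied together, as given below, so they are not 10 independent values. A difference between PFF and monomer mice in the response to oxygen was therefore not shown for any member, although 8 were called in monomer and 1 in PFF mice.

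Levels within batches are given before correction, since batches differed. In monomer mice at 21% O2, *Cldn5* was 44.2 ± 4.27 TPM (SD, n = 4) in batch 1 and 85.3 ± 12.2 TPM (SD, n = 7) in batch 2, and the lowest mouse of batch 2, at 67.4 TPM, was above the highest of batch 1. *Mfsd2a* in the same mice was 28.0 ± 4.13 TPM (SD, n = 4) and 31.3 ± 4.35 TPM (SD, n = 7), and *Slco1a4* was 30.9 ± 5.0 TPM (SD, n = 4) and 23.8 ± 3.71 TPM (SD, n = 7). In batch 3, *Cldn5* was 98.1 ± 21.9 TPM (SD, n = 4) in PFF mice at 21% O2 and 155 ± 3.33 TPM (SD, n = 4) in PFF mice at 11% O2.

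**Figure D4:**
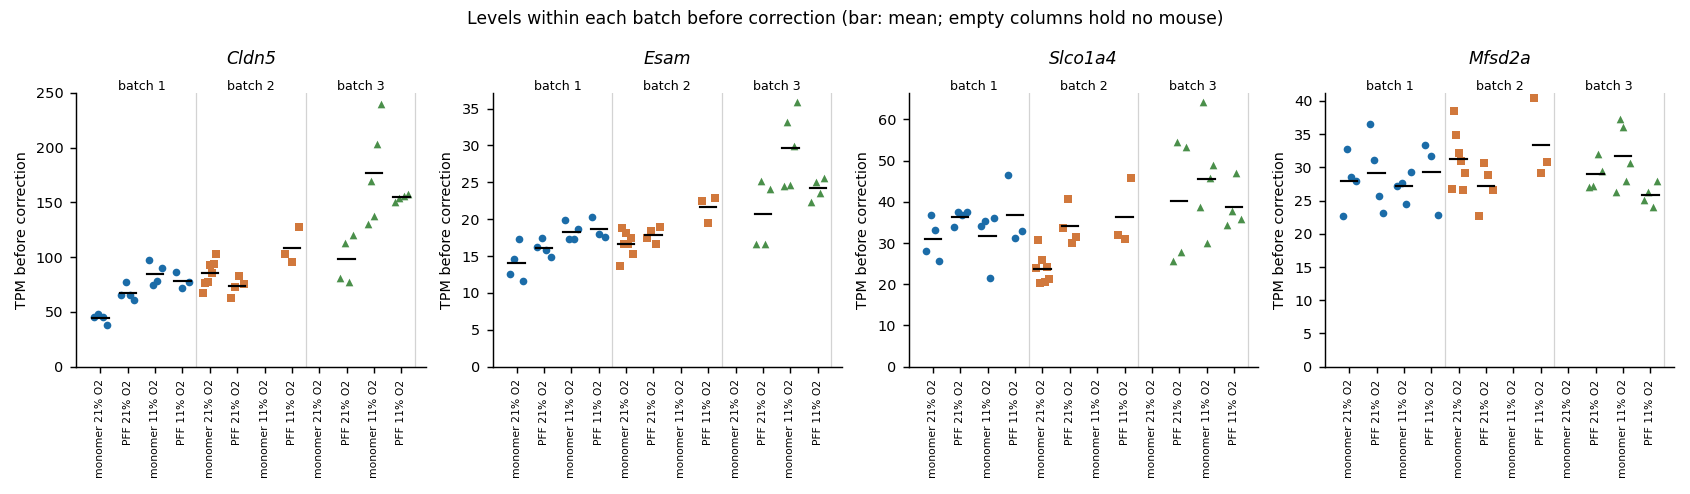
TPM before correction of *Cldn5*, *Esam*, *Slco1a4* and *Mfsd2a* by group within each batch. Points are mice, bars are means, and a column with no point holds no mouse. The mean of *Cldn5* is higher at 11% than at 21% O2 wherever a batch holds both for the same injection, and only batch 1 holds monomer mice at both oxygen levels.

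Junction genes and transporters were also read together in each mouse, as means of log2(TPM + 1) and with no test. The transporter mean minus the junction mean had a median of 0.66 in monomer and 0.82 in PFF mice at 21% O2, and of 0.45 in monomer and 0.56 in PFF mice at 11% O2. The ranges of the 4 groups overlapped, and the lowest value, 0.07, and the highest, 1.01, came from monomer mice at 11% O2 and PFF mice at 21% O2.

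With group means removed, members varied together from mouse to mouse, which is a description over 42 mice that share libraries and batches. Pearson's r had a median of 0.74 over the 6 pairs of junction genes, 0.47 over the 20 pairs of a junction gene and a transporter and 0.15 over the 10 pairs of transporters. *Abcb1a* followed the mean of the junction genes (r = 0.86), as did *Ly6c1* (0.71), *Slco1a4* (0.65) and *Slco1c1* (0.64), more than *Mfsd2a* (0.23) and *Slc7a5* (0.16) did. *Slco1a4* and *Slco1c1* had the highest r of all 45 pairs, 0.91, and *Slc7a5* with *Ly6c1* the lowest, -0.17.

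Outside the 10, the genes most like the junction mean by this measure were *Cxcl12* (r = 0.91), *Cavin1* (0.90), *Flt1* (0.89), *Ehd2* (0.88), *Jcad* (0.87), *Ahnak* (0.86), *Nos3* (0.86), *Adgrf5* (0.85), *Tie1* (0.85) and *Acvrl1* (0.84). Of these 10, 7 were called higher at 11% O2 in monomer mice, *Cxcl12*, a chemokine, by 1.36 in log2 units (SE 0.119, adjusted p = 4.60e-11) and the other 6 by 0.28 (*Jcad*) to 0.58 (*Acvrl1*). *Tie1* (0.36, adjusted p = 0.0569), *Ehd2* (0.24, adjusted p = 0.199) and *Ahnak* (0.17, adjusted p = 0.540) were not called.

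Other genes of vessels came from lists made by role, chosen with earlier results of these data known. Of 23 endothelial identity genes, 20 were called higher at 11% O2 in monomer mice and none lower, and their median change was 0.57. The count was 15 with replicates 6 and 11 left out. *Egfl7*, an endothelial matrix factor, rose by 0.57 (SE 0.0908, adjusted p = 1.21e-05), the adhesion glycoprotein *Podxl* by 0.77, the surface antigen *Cd34* by 0.57 and *Erg*, an ETS factor of endothelium, by 0.80. In batch 1 alone 2 of the 23 were called, with all 23 positive and a median of 0.43. In PFF mice 1 of the 23 was called higher at 11% O2, with all 23 positive and a median of 0.29.

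Of 15 further junction genes, 1 was called, *Lsr* of tricellular junctions (0.77, SE 0.147, adjusted p = 0.000486). The median of the 15 was 0.07, and 11 had positive values. Of 15 further transporters, 7 were called higher, among them *Slc22a8*, an organic anion carrier (0.84), *Abcb1b* (0.43) and the taurine carrier *Slc6a6* (0.41), and the median was 0.24. Of 18 genes of Wnt signalling and barrier formation, 5 were called higher, among them *Reck* (0.64) and *Fzd6* (0.65), which serve Wnt signals at the endothelium. Of 5 genes of vesicles and leak, *Cav1* (0.39) and *Cavin1* (0.48) were called. With replicates 6 and 11 left out, the counts were 3 of 15 transporters, 3 of 18 Wnt and barrier genes and 1 of 5 vesicle genes. In PFF mice 0 genes of these lists were called at 11% against 21% O2. Their medians there were 0.06 (junction genes), 0.12 (transporters), 0.11 (Wnt and barrier genes) and 0.09 (vesicle genes).

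Angiogenic and tip cell genes were called higher in 9 of 13 in monomer mice, with *Kdr*, the main receptor for vascular endothelial growth factor, at 1.15 (SE 0.0888, adjusted p = 5.50e-12), and in 4 of 13 in PFF mice, with *Kdr* at 0.97 (adjusted p = 4.04e-10). Of 8 arterial genes, 1 was called in each, *Gkn3*, which fell by 1.24 in monomer and by 1.51 in PFF mice. The arterial medians were 0.11 and -0.05, with 5 and 4 of the 8 positive. Without replicates 6 and 11, 2 of the 8 were called in monomer mice, both with lower levels at 11% O2.

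Markers of some other cell types moved with the junction genes, and their part in these results was not tested. Of 10 pericyte genes, 8 were called higher at 11% O2 in monomer mice (median 0.55), and their summed level was 230 to 352 TPM at 21% O2 and 302 to 642 TPM at 11% O2. All 5 red cell genes were called higher (median 1.32), with sums of 514 to 1404 TPM and 1058 to 5795 TPM. Without replicates 6 and 11, 7 pericyte, 5 red cell and 1 smooth muscle genes were called. Of 3 smooth muscle genes tested, 2 were called over all 42 mice, and the sums of the 5 listed, tested or not, were 28.8 to 51.3 TPM and 22.6 to 141 TPM. In PFF mice 4 of 10 pericyte genes were called higher at 11% O2 (median 0.33). There 0 of 5 red cell genes (median 0.79) and 0 of 3 smooth muscle genes (median -0.20) were called.

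Of 6 oligodendrocyte genes 2 were called higher, *Mog* (0.32) and *Cnp* (0.26). In the other 9 lists (astrocyte, microglia, neuron, choroid plexus, leptomeninges, leukocyte, leukocyte adhesion, venous and proliferation), edgeR called 0 of 42 genes tested in that comparison, and 8 had an unadjusted p under 0.05. DESeq2 called 1 of them, the venous receptor *Ephb4* (0.37), and limma 0. The leptomeningeal sums were 18.4 to 98.4 TPM at 21% O2 and 21.1 to 144 TPM at 11% O2, and those of choroid plexus 11.8 to 86.8 TPM and 18.6 to 143 TPM. Their median log2 fold changes were 0.36 and 0.19 in monomer mice but -0.10 and -0.30 in PFF mice, with 0 genes called in either. Over 42 mice with group means removed, the endothelial identity list followed the junction mean with r = 0.93. Pericytes had 0.86, smooth muscle 0.72 and leptomeninges 0.70. Astrocytes had 0.53, leukocytes 0.52, microglia 0.50, red cells 0.35, oligodendrocytes 0.15, choroid plexus 0.14 and neurons -0.54, again as a description.

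**Figure D5:**
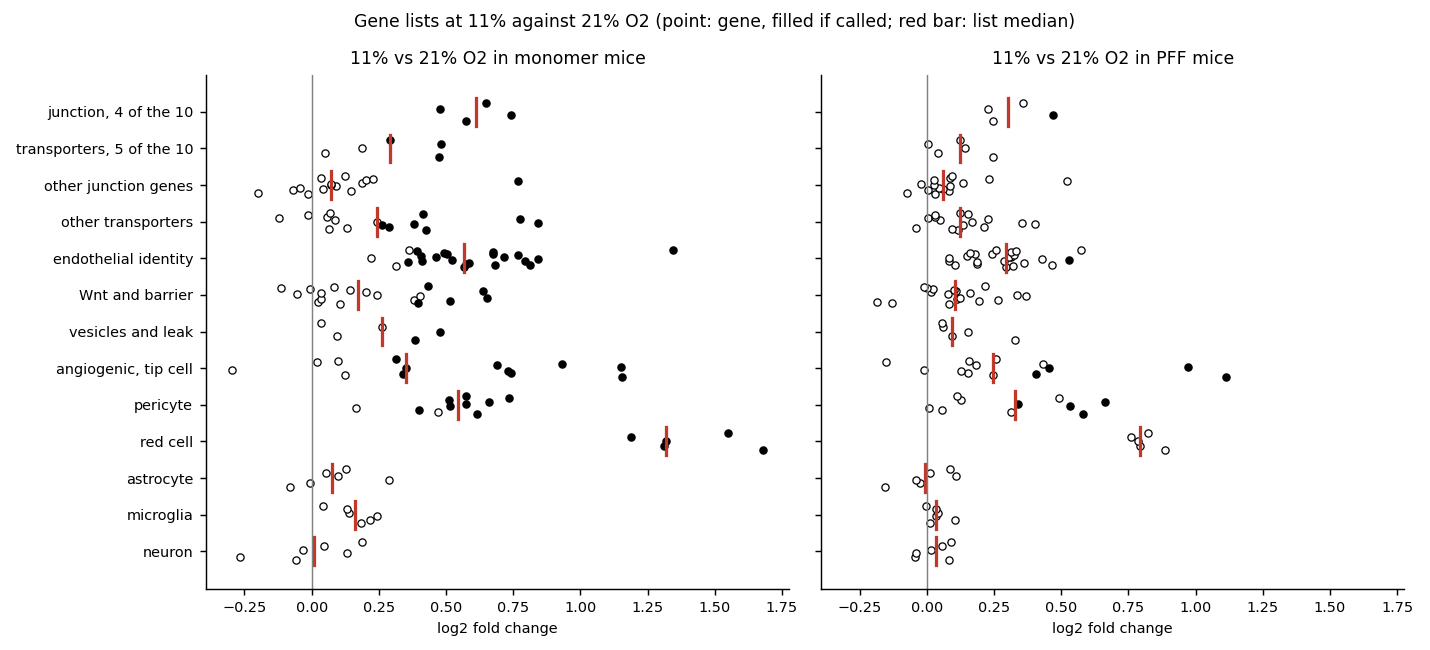
Log2 fold change at 11% against 21% O2 of each gene of 13 lists, in monomer mice (left) and PFF mice (right). Points are genes, filled where called, and red bars are list medians. Endothelial identity, pericyte and red cell genes have medians above 0 in both. In monomer mice the microglia genes run from 0.04 to 0.24, the astrocyte genes from -0.08 to 0.29 and the neuron genes from -0.27 to 0.19, none of them called.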

How the data were processed

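Total RNA of the SN was enriched for mRNA with oligo(dT) beads, per the paper, and sequenced in 48 mice. Per the labels and the paper, the authors aligned reads with STAR 2.7.5a to mm10 and counted them with featureCounts 2.0.1 on GENCODE vM24. The authors deposited counts, and TPM computed from them, for 48 mice, and batch-corrected counts (ComBat-seq) and TPM for 42 mice. The authors left out the other 6 after a principal components analysis. ComBat-seq was given oxygen level and injection as covariates to keep. Batch and group overlap only in part, which limits what a correction can separate.

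For the tests on corrected counts, edgeR 4.0.16 was run in R 4.3.3 (filterByExpr, TMM, 4 groups in 1 fit, no batch term). SE is the absolute log2 fold change over the square root of F. The script was tested on simulated data. Alternatives were DESeq2 1.42.0, limma 3.58.1 on log2(TPM + 1), other filters and factors, batch as a covariate, each batch alone, a replicate block, and each mouse left out. Coordinates are of GENCODE vM21 on GRCm38. Named outside the members are up to 4 called genes per list and comparison by smallest p, defining markers, and the 10 genes most correlated with the junction mean. Members and lists were chosen with earlier results of these data known.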

Additional observations from a re-analysis of the deposited data

Results flagged for a closer look

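In monomer mice at 11% O2 (9 mice), *Cdh5* of replicate 11 was 28.1 TPM, with 15.3 TPM in the nearest mouse, a gap of 0.625 of the whole range against Dixon's critical value of 0.493. That mouse was taken 98 days after injection, and the others of its batch after 91. In the same group, *Ly6c1* of replicate 6 was 216 TPM, with 130 TPM in the nearest mouse, a gap of 0.638 of the range. Both gaps are of corrected values. Correction left these top values at their counts, 487 for *Cdh5* and 1504 for *Ly6c1*. It lowered the nearest mouse, replicate 10 for both genes, from 372 to 264 and from 1079 to 893 counts. Before correction the values were 26.0 against 19.9 TPM for *Cdh5* and 199 against 145 TPM for *Ly6c1*. The flagged groups were 2 of 20 groups of values examined, and chance alone gives about 1 in 20. Both mice were kept in the tests of the report, and the effect of leaving them out is given there.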

How the results depend on the processing

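Monomer mice at both oxygen levels met only in batch 1, so batch and oxygen are partly confounded. Over 11% against 21% O2 in monomer mice, 5 members were called with batch as a covariate in 42 mice, 3 in 48 mice, 1 in batch 1 alone and 3 with replicates 6 and 11 left out together, a choice made after seeing the data; leaving out single mice gave 6 to 8. For PFF at 21% O2 the count was 0 with no filter on low counts and with batch as a covariate in 42 or 48 mice. It was also 0 with limma under each of its 3 settings, and leaving out single mice gave 0 to 1. In batch 1 alone the count was 1, but the member called was *Cldn5* and not *Slco1a4*. For 11% against 21% O2 in PFF mice it was 0 with no batch term and in each batch alone. Of 71 counts under alternatives other than single mice, 57 were within 1.5 times the reported count and 14 were not. The causes were not tested.

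Signs of log2 fold changes at 2 decimals reversed as follows. Values of 0.00 have no sign to reverse: *Pecam1* for PFF at 21% O2 ran from -0.05 to 0.17 over the other settings and *Slco1a4* for oxygen in PFF mice from -0.08 (batch 3 alone) to 0.12 (batch 2 alone), and with single mice left out from -0.05 to 0.05 and from -0.08 to 0.06. In batch 1 alone, for PFF at 21% O2, *Cdh5* was 0.16, *Slc7a5* -0.05 and *Mfsd2a* 0.08, and for PFF at 11% O2, *Pecam1* was 0.03, *Esam* 0.04, *Slco1a4* 0.23, *Abcb1a* 0.02, *Mfsd2a* 0.13, *Slco1c1* 0.14 and *Ly6c1* 0.21. In the same batch *Mfsd2a* was -0.05 for oxygen in monomer mice, and the interaction was 0.08 for *Slc7a5*, 0.04 for *Mfsd2a* and 0.04 for *Slco1c1*. In batch 2, for PFF at 21% O2, *Cldn5* was -0.21 and *Abcb1a* -0.06. In batch 3, *Slc7a5* was -0.02 for PFF at 11% O2 and -0.04 for oxygen in PFF mice, and *Mfsd2a* -0.18 for the latter. With batch as a covariate, *Slco1a4* was 0.03 for PFF at 11% O2 in 42 mice, and in 48 mice *Abcb1a* was -0.01 for PFF at 21% O2, *Slc7a5* -0.02 for PFF at 11% O2 and *Mfsd2a* -0.04 for oxygen in PFF mice. With no batch term, *Cdh5* was 0.06 for PFF at 21% O2, *Slc7a5* -0.02 for PFF at 11% O2, and *Mfsd2a* -0.02 for oxygen in monomer mice and 0.05 for the interaction. With replicates 6 and 11 left out, *Slco1a4* was 0.16, *Slco1c1* 0.07 and *Ly6c1* 0.09 for PFF at 11% O2, *Mfsd2a* -0.01 for oxygen in monomer mice, and the interaction was 0.05 for *Mfsd2a* and 0.01 for *Ly6c1*. Leaving out single mice gave, for PFF at 11% O2, -0.11 to 0.10 for *Slco1a4*, -0.02 to 0.05 for *Slc7a5*, -0.07 to 0.02 for *Slco1c1* and -0.18 to 0.04 for *Ly6c1*, and gave -0.02 to 0.08 for *Mfsd2a* with oxygen in PFF mice and -0.07 to 0.04 for its interaction.

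The paper describes matching animals on weight, age, delivery and cage, but the labels give no such pairs, and the check was made on the replicate numbers alone. Over 54 same-numbered pairs the median correlation of deviations was -0.02, and 23 were over 0.1, so the numbers were not taken as pairs. With the replicate block, *Slco1a4* was 0.04 and *Slc7a5* -0.05 for PFF at 11% O2, and 7 members were called for oxygen in monomer mice, against 7.57% of all genes.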
